A study of Mus musculus with 18 samples.

Results

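The comparison described here set livers of *Atf4*-/- mice given asparaginase against livers of WT mice given the same drug. Genes were taken when their expression estimate carried the status OK in both groups and exceeded an FPKM of 3 in either, after genes of skeletal muscle, squamous epithelium and exocrine pancreas had been set aside. By this rule 9608 of the 37303 genes of the table were members. *Mbd5* lay just inside the FPKM limit at 2.96 in WT and 3.00 in *Atf4*-/- livers, and *Zbtb41* just outside at 2.998 and 2.97.

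Asparaginase (ASNase) is an antileukemic enzyme that removes asparagine, and to a lesser degree glutamine, from the blood. The kinase GCN2, encoded by *Eif2ak4*, senses uncharged tRNA and phosphorylates the initiation factor eIF2. Phosphorylated eIF2 lowers general protein synthesis and raises translation of ATF4, a bZIP transcription factor that drives genes of amino acid synthesis, transport and tRNA charging, the amino acid response. The liver makes most plasma proteins and holds the main enzymes of bile acid, drug, lipid and nitrogen metabolism, so a change of its hepatocytes is read from many abundant mRNAs.

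RNA-Seq was performed on poly-A RNA from 18 livers, 3 per group. WT, *Gcn2*-/- and *Atf4*-/- mice on the C57BL/6J background received 8 daily intraperitoneal injections of ASNase at 3 IU per gram body weight or of phosphate buffered saline (PBS) of the same volume. *Atf4*-/- and *Gcn2*-/- mice were homozygous for a deletion carried in every tissue, so an effect on the liver can come from the liver or from elsewhere in the body. The mice were young adults of at least 8 weeks, and the upper age was given both as 12 and as 16 weeks. The labels gave 7.5 h between injection and collection. The WT ASNase and the *Atf4*-/- ASNase groups each held 1 female and 2 males. The WT PBS group held 2 females and 1 male, and the *Atf4*-/- PBS group 1 female and 2 males. Both *Gcn2*-/- groups held 2 females and 1 male. Sex and genotype therefore cannot be told apart where *Gcn2*-/- ASNase is set against WT ASNase livers.

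The table gave each group 1 FPKM value (reads scaled by transcript length and by library size), estimated by Cuffdiff from its 3 libraries together, with the lower and upper bound of an interval. Values of single mice were not used here, so differences carry no replicate check and no p-value is given. Values below are the authors' pooled values, followed by their interval in parentheses. Differences are *Atf4*-/- minus WT on the log2(FPKM + 0.1) scale, which understates the difference of low genes. A gene was called higher or lower when both values were above 0, they lay more than 1.5 apart on this scale and their intervals were separate.

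FPKM carry no counts, and the depth of the libraries was not used here. Among genes over an FPKM of 3 the upper bound lay at the median 52.5% above the value in WT ASNase and 54.2% in *Atf4*-/- ASNase livers, so the method resolves only large differences. The 10 highest genes took 23.003% of the summed FPKM in WT and 32.4% in *Atf4*-/- livers. Markers of endothelial cells summed to an FPKM of 184.7 in WT and 167.5 in *Atf4*-/- livers, and Kupffer cell markers to 232.3 and 256.7. Erythroid markers summed to 156.6 and 7.53, with 4 of 5 tested members called lower, among them *Hbb-b1* at 69.5 (39.3 to 99.8) and 2.76 (0.06396 to 5.45). In *Gcn2*-/- ASNase livers the erythroid markers summed to 11.8. Hepatocyte markers summed to 24414 and 12758, but *Alb* and *Fgb* had no estimate in at least 1 of the groups. In this list 1 gene was listed at 0 in WT and 2 in *Atf4*-/- livers, so the sums do not cover the same genes. The 11 hepatocyte markers tested had a median log2 difference of -0.65, and 1 was called lower. Muscle genes summed to 2424 in WT ASNase and 377.5 in *Atf4*-/- ASNase livers, pancreatic acinar genes to 275.6 and 1000.3, and squamous genes to 765.0 and 115.9. These 3 lists were set aside as tissue outside the liver. In whole liver tissue, fewer cells of a type and less RNA per cell cannot be told apart.

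The targeted gene was estimated at 63.1 (36.4 to 89.8) in WT ASNase and 29.3 (17.3 to 41.2) in *Atf4*-/- ASNase livers. Under PBS the values were 50.4 and 32.3. The intervals overlapped under both treatments and *Atf4* was not called. A value for the whole gene does not separate deleted from remaining exons, so the reads left at the locus do not check the deletion. *Eif2ak4* was at 2.39 (0.7496 to 4.04) and 3.14 (0.4996 to 5.78).

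Of the members, 9463 had values above 0 in both groups. Of these, 730 were called, or 7.71% of the genes tested, with 238 higher (2.52%) and 492 lower (5.20%) in *Atf4*-/- livers. The median log2 difference of all genes tested was 0.08, and the central 90% lay between -1.98 and 1.46. Above 0 lay 54.2% of these genes, the share against which counts above 0 in the lists below are to be read. Counts called higher or lower in those lists are to be read against 2.52% and 5.20%. Protein-coding genes made up 683 of the calls, 222 higher and 461 lower. Under PBS the same strains differed by 64 calls among 8983 genes tested, or 0.712%.

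**Figure D1:**
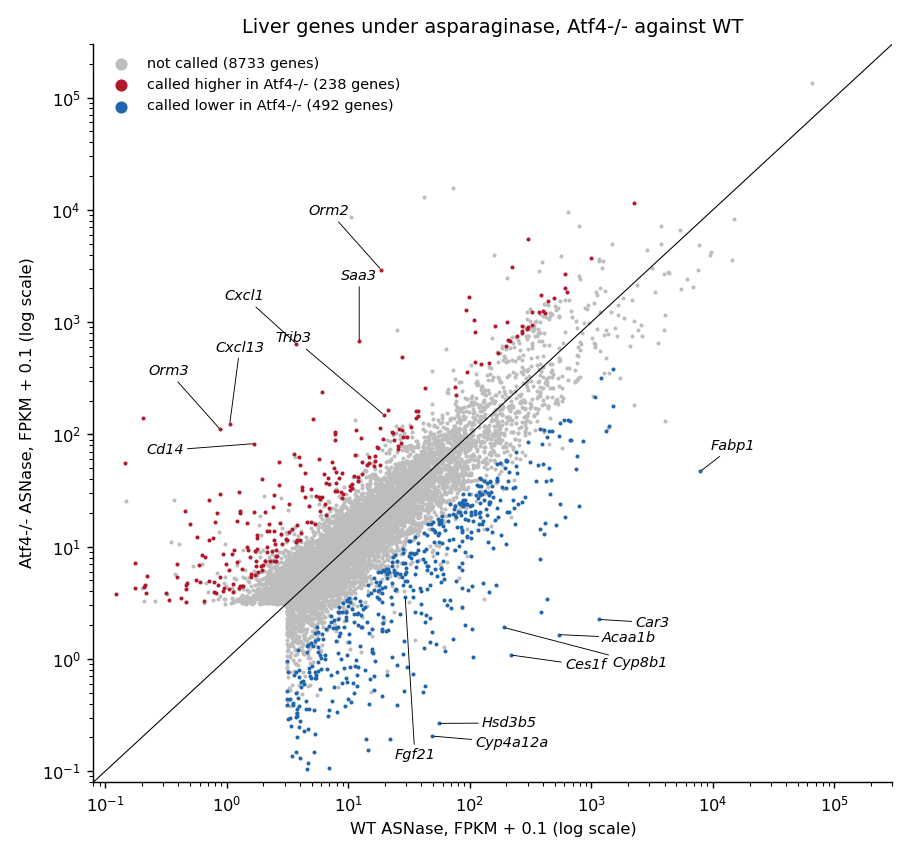
FPKM + 0.1 of each gene tested in WT ASNase (x axis) and *Atf4*-/- ASNase livers (y axis), both on log scales, with the line of equal values. Red points are the 238 genes called higher and blue points the 492 called lower in *Atf4*-/- livers. Labels mark genes described in the text.

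Chemokines and acute phase genes led the genes called higher. *Cxcl1*, a chemokine that attracts neutrophils, was at 3.65 (1.31 to 5.99) in WT and 642 (249 to 1034) in *Atf4*-/- livers after ASNase, a log2 difference of 7.42. Its PBS values were 2.98 and 17.8, so the *Atf4*-/- ASNase group was the highest of the 4. *Cxcl1* lies at chr5:90891241-90893115 on the plus strand (mm10). *Orm2*, which encodes an acute phase glycoprotein of the plasma, stood at 18.5 (9.26 to 27.7) and 2939 (385 to 5493). *Orm3* was at 0.783 (0.0223 to 1.54) and 111 (60.6 to 161), but copies of this family are near-identical and the division of reads between them is uncertain. *Cxcl13*, a B cell chemokine, was at 0.958 (0.194 to 1.72) and 124 (51.1 to 197), and *Saa3*, a serum amyloid A gene, at 12.2 (4.31 to 20.1) and 672 (301 to 1043). These genes were named for the wide gap between their intervals, so that gap follows from the choice.

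The other genes among the 12 with the widest gap between intervals had low values in WT livers. *Cd14*, the co-receptor of lipopolysaccharide, was at 1.59 (0.512 to 2.66) and 82.6 (31.4 to 134). *Scara5*, a ferritin receptor, was at 0.609 (0.1898 to 1.03) and 25.7 (12.5 to 38.9), and *Crym*, a thyroid hormone binding protein, at 1.16 (0.329 to 1.997) and 30.3 (16.9 to 43.7). *Slc10a6*, a carrier of sulfated steroids, was at 0.353 (0.0547 to 0.651) and 20.5 (5.896 to 35.1), and the transcription factor gene *Runx1* at 0.113 (0.0167 to 0.209) and 4.42 (1.99 to 6.85). *Vmn2r3*, annotated as a vomeronasal receptor gene at chr3:64257215-64289709 on the minus strand, was at 0.777 (0.0399 to 1.51) and 29.1 (15.6 to 42.5), and below an FPKM of 0.1 in both PBS groups. *Crym*, *Slc10a6*, *Runx1* and *Vmn2r3* were at 1.89, 1.14, 0.417 and 0.0287 in *Gcn2*-/- ASNase livers, where the same drug was given without GCN2. The *Gcn2*-/- ASNase values of the other genes among the 12 are not given in the text, so these genes do not stand for the 12. In that group the medians of the acute phase, chemokine and innate signaling lists against WT ASNase also lay above 0, as given below.

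Of 28 acute phase genes tested, 12 were called higher and 0 lower, with 26 above 0 and a list median of 3.70 against 0.08 for all genes tested, of which 2.52% were called higher. The *Gcn2*-/- ASNase group, compared with the same WT ASNase group, had a list median of 2.98. Under PBS the *Atf4*-/- list median was 1.09, and 7 of the 28 genes were called. *Il1rn*, the antagonist of the IL-1 receptor, was at 5.02 (0.559 to 9.49) and 136 (27.9 to 244), and *Socs3*, a feedback inhibitor of IL-6 signaling, at 2.57 (0.118 to 5.02) and 56.6 (20.1 to 93.1). The most abundant genes of the list could not be called. *Saa1* was at 72.2 (38.9 to 106) and 15560.4 (0 to 43179.5), *Saa2* at 41.6 (22.3 to 60.9) and 13079 (0 to 37165) and *Orm1* at 648 (337 to 959) and 9641 (0 to 20086), and in *Atf4*-/- livers each interval reached 0. *Saa1* was already at 3622 in *Atf4*-/- PBS livers and at 70.9 in WT PBS livers. *Hp*, *Hpx*, *Fga*, *Fgb* and *Fgg*, which encode haptoglobin, hemopexin and the fibrinogen chains, had no estimate in at least 1 of the 2 groups.

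Receptors and signaling genes of the innate response lay mostly above 0, where 54.2% of all genes tested lay. Of 33 tested genes of Toll-like receptor, IL-1 and NF-kB signaling, a list added after values had been seen, 28 lay above 0, 10 were called higher and 1, the flagellin receptor gene *Tlr5*, lower, with a median of 1.40. In *Gcn2*-/- ASNase against WT ASNase livers the list median was 0.96. *Tifa* and *Alpk1*, an adaptor and the kinase that senses a bacterial sugar phosphate, were at 5.94 (0.907 to 10.97) and 237 (66.8 to 408), and at 0.395 (0 to 0.798) and 15.9 (4.67 to 27.2). *Il1r1*, the IL-1 receptor, was at 7.64 (4.41 to 10.9) and 105 (34.2 to 177). *Icam1*, an adhesion molecule for leukocytes, was at 3.83 (1.997 to 5.66) and 62.8 (31.8 to 93.8), and *Tnfaip3*, an inhibitor of NF-kB, at 0.734 (0.0365 to 1.43) and 19.7 (6.62 to 32.8). *Nfkbia*, another inhibitor of NF-kB, was at 25.04 (14.7 to 35.4) and 69.98 (38.6 to 101), a log2 difference of 1.48, and was not called. Among 11 chemokine genes tested, also a list added after values had been seen, 5 were called higher and 1 lower. Their median was 0.87, and 1.01 in *Gcn2*-/- ASNase against WT ASNase livers. The chemokine list summed to an FPKM of 237.7 in WT, 706.9 in *Gcn2*-/- and 1047.2 in *Atf4*-/- livers after ASNase. *Cxcl2* was at 0.0752 (0 to 0.226) and 7.11 (2.61 to 11.6) and *Ccl6* at 6.24 (2.46 to 10.02) and 44.3 (20.5 to 68.1), whereas the interferon-induced *Cxcl9* was at 3.21 (1.61 to 4.82) and 0.199 (0.0253 to 0.372), and already at 8.99 and 2.23 under PBS.

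Of the markers of inflammatory myeloid cells and neutrophils only 4 of 15 reached the expression limit. *S100a8*, an abundant neutrophil gene, was at 2.13 (0.0353 to 4.22) and 3.51 (0 to 7.05), *S100a9* at 3.19 (0.6604 to 5.72) and 2.57 (0.0414 to 5.103), and *Lyz2*, a lysozyme of macrophages and neutrophils, at 40.97 (24.3 to 57.7) and 38.5 (21.7 to 55.2). Their intervals overlapped, and the list summed to an FPKM of 48.9 in WT and 50.2 in *Atf4*-/- livers. *Itgam* was called higher at 0.362 (0 to 0.9705) and 4.097 (1.21 to 6.98). *Marco*, a scavenger receptor of Kupffer cells, was called higher at 3.45 (1.56 to 5.35) and 67.3 (28.8 to 106), and *Cd163* at 3.68 (2.07 to 5.297) and 11.4 (6.53 to 16.2), while *Clec4f*, a gene restricted to Kupffer cells, was at 52.4 (20.6 to 84.2) and 30.1 (10.1 to 50.1) and was not called.

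Stretches of promoter are given for *Cxcl1* and *Cxcl2* because these neighbouring genes of chromosome 5 were both called higher. The sequences are of RefSeq, build GRCm38 (mm10), hold only bases before the start that RefSeq gives, which can differ by a few bases from the GENCODE start given above, run 5′ to 3′ on the strand of the gene and show matches to GGNNTTTCC, a core of NF-kB sites, on either strand in capitals. The motif was chosen after values had been seen and stood in 5.72% of the 27025 promoter windows of 300 bases. The *Cxcl1* stretch is chr5:90891096-90891243 and the *Cxcl2* stretch chr5:90903743-90903890, both on the plus strand. A match is a description of the sequence and not a measured binding site.
Cxcl1: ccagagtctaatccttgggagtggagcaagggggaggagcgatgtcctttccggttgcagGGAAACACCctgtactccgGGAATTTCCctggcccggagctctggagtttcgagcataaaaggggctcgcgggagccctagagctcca
Cxcl2: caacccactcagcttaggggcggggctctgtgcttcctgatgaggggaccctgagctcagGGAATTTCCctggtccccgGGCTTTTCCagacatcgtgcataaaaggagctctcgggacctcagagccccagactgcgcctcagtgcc

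Genes of the amino acid response differed in both directions. Of 33 tested, 6 were called higher (*Gadd45a*, *Trib3*, *Chac1*, *Soat2*, *Atf3* and *Ddit4*) and 2 lower (*Fgf21* and *Egln3*), with 18 above 0 and a median of 0.33 against 0.08 for all genes tested. The count above 0 was near the share of all genes tested, 54.2%, of which 2.52% were called higher and 5.20% lower. *Trib3*, a pseudokinase that inhibits AKT and ATF4, was at 19.5 (11.4 to 27.7) in WT and 149.6 (60.2 to 239) in *Atf4*-/- livers, with PBS values of 5.46 and 3.63 and 3.39 in *Gcn2*-/- ASNase livers. *Chac1*, which degrades glutathione, was at 3.16 (1.39 to 4.93) and 23.7 (12.3 to 35.2), with 2.89 in *Gcn2*-/- ASNase livers. *Atf3*, a stress-induced bZIP factor, was at 3.14 (0.9001 to 5.39) and 13.3 (6.19 to 20.4), with 3.598 in *Gcn2*-/- ASNase livers. *Gadd45a*, a growth arrest gene, was at 5.64 (2.17 to 9.11) and 60.04 (25.7 to 94.4) and at 2.57 in *Gcn2*-/- ASNase livers. In each of these 4 genes the *Atf4*-/- ASNase value was the highest of the 6 groups.

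*Fgf21*, a hormone secreted by the liver in fasting and amino acid shortage, went the other way. It was at 29.3 (14.6 to 43.9) in WT ASNase and 3.497 (1.03 to 5.97) in *Atf4*-/- ASNase livers, a log2 difference of -3.03, with 2.14 and 1.17 under PBS and 0.782 in *Gcn2*-/- ASNase livers. The WT ASNase group was thus the only group of the 6 above an FPKM of 10. *Egln3*, an oxygen sensor, was also called lower, at 7.84 (4.47 to 11.2) and 1.36 (0.536 to 2.18).

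Several textbook ATF4 targets were not called. *Asns*, the asparagine synthetase, was at 8.13 (1.97 to 14.3) in WT ASNase and 20.1 (7.27 to 32.9) in *Atf4*-/- ASNase livers, and at 2.502 and 0.591 under PBS. *Ddit3*, which encodes CHOP, was at 18.7 (0 to 37.7) and 73.1 (4.79 to 141), with overlapping intervals. *Atf5* was at 209.9 (101 to 319) and 339 (131 to 547), *Sesn2*, an inhibitor of mTORC1, at 3.71 (2.03 to 5.39) and 5.97 (3.43 to 8.51), and *Eif4ebp1*, a repressor of cap-dependent translation, at 49.5 (29.3 to 69.6) and 64.3 (34.1 to 94.5). In all 5 the *Atf4*-/- ASNase value was the highest of the WT and *Atf4*-/- groups. *Cth*, which makes cysteine, was at 287 (133 to 442) and 146 (66.3 to 225). Among 24 aminoacyl-tRNA synthetase genes 0 were called, 21 lay above 0 and the median was 0.51, with *Eprs* at 27.7 (15.8 to 39.6) and 56.2 (29.5 to 82.9).

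**Figure D2:**
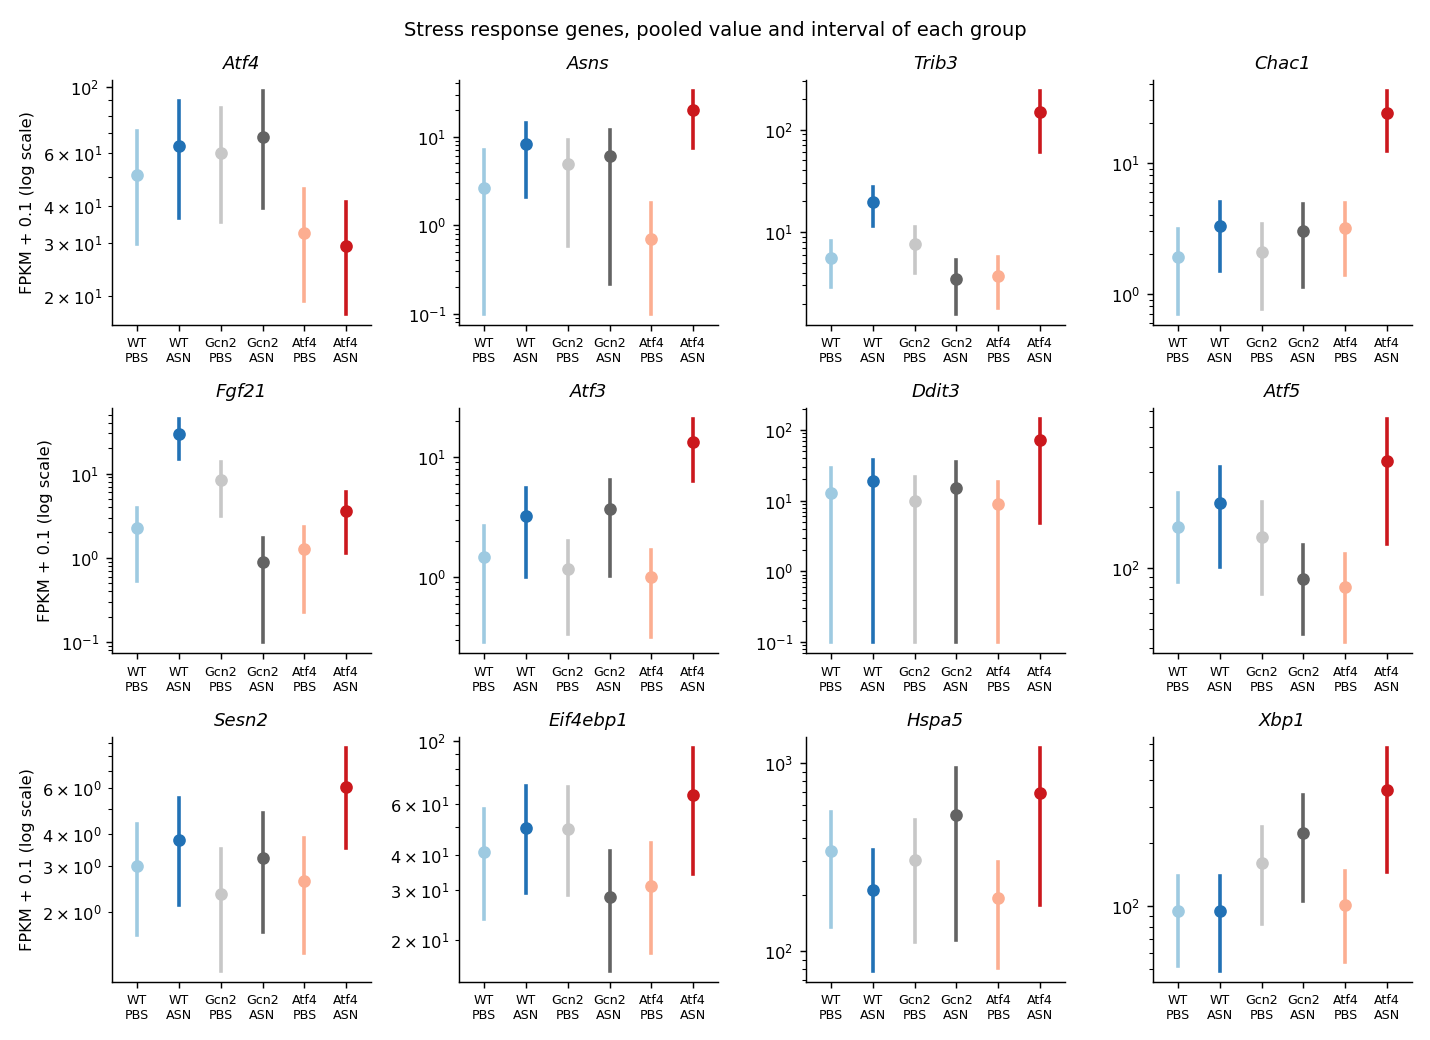
FPKM + 0.1 (log scale) of 12 genes of the amino acid and unfolded protein responses in the 6 groups, named on the x axis by genotype (WT, *Gcn2*-/-, *Atf4*-/-) and treatment (PBS or ASNase, written ASN). Points are the pooled values of 3 livers and lines their Cuffdiff intervals. *Trib3*, *Chac1* and *Atf3* are highest in *Atf4*-/- ASNase livers, and *Fgf21* is highest in WT ASNase livers.

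Genes of the unfolded protein response lay mostly above 0. Of 40 genes of ER chaperones and of this response, 38 lay above 0, with a median of 0.72. In this list 4 were called higher and 0 lower, while 2.52% of all genes tested were called higher. Under PBS the list median was -0.23 and 0 of 40 were called. *Derl3*, a component of ER-associated degradation, was at 0.617 (0.0973 to 1.14) and 11.4 (5.61 to 17.2), and *Sdf2l1*, an ER protein folding factor, at 11.2 (5.87 to 16.5) and 65.8 (35.02 to 96.6). *Xbp1*, the transcription factor spliced by IRE1, was at 94.6 (49.2 to 140.1) and 359.6 (146 to 573), and *Creld2*, an ER disulfide isomerase, at 16.1 (8.77 to 23.4) and 52.4 (28.1 to 76.8). *Hspa5*, the main ER chaperone, was at 211 (78.7 to 343) and 691 (176 to 1207), a log2 difference of 1.71 with overlapping intervals. The strain difference of *Hspa5* was -0.84 under PBS, and the change between treatments exceeded its combined error. In *Gcn2*-/- ASNase livers *Derl3*, *Sdf2l1*, *Creld2* and *Hspa5* were at 13.4, 83.7, 87.9 and 529.6, and the list median against WT ASNase was 1.04.

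Sequences before the RefSeq start are shown for *Hspa5*, *Asns*, *Chac1* and *Fgf21*, because these genes are textbook targets of the 2 responses. Capitals mark, in *Hspa5*, the ER stress element, which is CCAAT followed after 9 bases by CCACG, and in the others TGATGNAA, the element of C/EBP-ATF factors, read on either strand. The former was in 0.130% and the latter in 4.06% of the 27025 promoter windows. The stretches are chr2:34771965-34772089 (plus strand), chr6:7693210-7693292 (minus), chr2:119350992-119351116 (plus) and chr7:45615562-45615689 (minus), from RefSeq on mm10. *Chac1*, which was called higher, *Fgf21*, which was called lower, and *Asns*, which was not called, hold the same element.
Hspa5: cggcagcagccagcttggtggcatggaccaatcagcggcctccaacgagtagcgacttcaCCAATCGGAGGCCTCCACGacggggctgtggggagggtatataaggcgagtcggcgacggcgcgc
Asns: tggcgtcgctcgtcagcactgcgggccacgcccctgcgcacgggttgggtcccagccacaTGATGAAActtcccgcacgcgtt
Chac1: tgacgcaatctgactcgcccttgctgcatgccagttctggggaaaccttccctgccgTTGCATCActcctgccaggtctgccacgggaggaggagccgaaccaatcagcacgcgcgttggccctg
Fgf21: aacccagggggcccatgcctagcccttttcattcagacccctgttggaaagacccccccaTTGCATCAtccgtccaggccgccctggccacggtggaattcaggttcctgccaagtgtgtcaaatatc

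Windows could be matched for 76.5% of the genes called higher, 74.4% of those called lower and 79.0% of all genes tested. A comparison of motif shares between these sets was void because fewer than 80% in each set had a window, and none is given.

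Ribosomal protein genes all lay on the side of *Atf4*-/- livers. All 77 genes of cytosolic ribosomal proteins lay above 0, between 0.61 and 2.19, and 19 were called higher, with a median of 1.46 against 0.08 for all genes tested. Under PBS their median was -0.11 with 0 calls, and in *Gcn2*-/- ASNase against WT ASNase livers it was 0.23. *Rpl12* was at 387 (202 to 571) and 1760.2 (728 to 2792), with 344 and 317 under PBS and 434 in *Gcn2*-/- ASNase livers. *Rps12* was at 611 (346 to 877) and 2672 (1211 to 4133), *Rps27* at 996 (591 to 1402) and 3701 (2020.2 to 5382), and *Rpl30* at 489 (259.7 to 718) and 1646 (769 to 2524). The more abundant *Rpl13a* was at 1473 (0 to 2954) and 4984 (0 to 11592) and was not called, because both intervals reached 0. Genes of this family have many processed pseudogenes, so the division of reads is uncertain. The pseudogenes *Gm8730* and *Rpl3-ps1*, chosen after their values were seen, had log2 differences of 9.41 and 8.60 after ASNase and of 8.82 and 6.71 under PBS, so theirs were present without the drug. Mitochondrial ribosomal protein genes, a list added after values had been seen, had 34 of 75 above 0, 0 calls and a median of -0.03.

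Other genes of protein synthesis lay mostly above 0 too. Of 43 ribosome biogenesis genes all lay above 0, 3 were called higher and the median was 1.01. *Nop58*, of box C/D snoRNPs, was at 11.96 (6.79 to 17.1) and 41.2 (23.6 to 58.8), and *Gar1*, of H/ACA snoRNPs, at 12.8 (4.53 to 21.1) and 44.2 (21.3 to 66.999). Of 42 translation factor genes 38 lay above 0 and 2 were called higher, with a median of 0.66, while 2.52% of all genes tested were called higher. *Eif1a*, an initiation factor of the scanning ribosome, was at 25.96 (14.7 to 37.3) and 113 (58.7 to 167), and *Eif6*, which keeps ribosomal subunits apart, at 37.5 (17.7 to 57.3) and 145 (64.8 to 226). *Eef2* was at 478 (179.5 to 777) and 1188 (121 to 2255), with overlapping intervals. Proteasome genes had a median of 0.27, with 0 calls of 32. Of 61 genes of oxidative phosphorylation 60 lay below 0, with 0 calls and a median of -0.66, against -0.37 under PBS.

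Genes of lipid metabolism made up many of the calls in the other direction. Of 38 genes of fatty acid oxidation and ketogenesis, 23 were called lower and 0 higher, with a median of -1.98 against -0.29 under PBS, while 5.20% of all genes tested were called lower. In *Gcn2*-/- ASNase against WT ASNase livers the list median was -1.08. *Fabp1*, the liver fatty acid binding protein, was at 7854 (2145 to 13563) in WT and 46.6 (25.9 to 67.4) in *Atf4*-/- livers after ASNase, a log2 difference of -7.39. Its values were 10830.5 and 7629 under PBS and 1358 in *Gcn2*-/- ASNase livers, so *Atf4*-/- ASNase was lowest. *Acaa1b*, a peroxisomal thiolase, was at 541 (233 to 848) and 1.55 (0.333 to 2.76), with 29.3 in *Gcn2*-/- ASNase livers. *Cyp4a10*, a fatty acid hydroxylase, was at 375 (153 to 598) and 7.73 (3.54 to 11.9), and *Acot1*, an acyl-CoA thioesterase, at 28.5 (16.3 to 40.6) and 0.416 (0.0405 to 0.791). *Bdh1*, which interconverts ketone bodies, was at 163 (72.3 to 253) and 4.48 (1.77 to 7.18).

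Lipid synthesis genes were also called in this direction. Of 25 genes of fatty acid and triglyceride synthesis, 10 were called lower and 0 higher (median -1.77), beside 5.20% of all genes called lower. In *Gcn2*-/- ASNase against WT ASNase livers the median of this list was -1.32. The desaturases *Fads1* and *Fads2* were at 202 (94.3 to 310.4) and 20.2 (11.9 to 28.6), and at 378 (184 to 572) and 14.3 (8.05 to 20.6). The elongase *Elovl3* was at 40.7 (16.4 to 65.1) and 0.4098 (0.0363 to 0.783). *Scd1*, the main desaturase of the liver, was at 2253 (0 to 5352) and 182 (73.002 to 291) and was not called because the WT interval reached 0, while *Dgat2* was at 302 (146 to 458) and 386 (101 to 670.3). Of 25 cholesterol synthesis genes, 11 were called lower and 0 higher (median -1.80). *Tm7sf2*, a sterol reductase, was at 96.3 (47.5 to 145) and 4.02 (0 to 9.57), *Idi1*, an isomerase of the mevalonate pathway, at 60.5 (24.6 to 96.4) and 7.38 (2.62 to 12.1), and *Insig1*, which retains SREBP in the ER, at 102 (55.5 to 148) and 20.4 (11.9 to 28.9). In *Gcn2*-/- ASNase livers these genes were at 64.9, 96.3 and 102, and the list median against the same WT ASNase group was 0.59.

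The lowest log2 difference of any called gene was that of *Car3*, a cytosolic carbonic anhydrase. It was at 1161 (362 to 1959) in WT ASNase and 2.15 (0.776 to 3.52) in *Atf4*-/- ASNase livers, a log2 difference of -9.01. Under PBS it was at 1730.5 and 639.7, and in *Gcn2*-/- ASNase livers at 15.9. *Car3* is also high in muscle and fat. Muscle genes summed to 1709 in WT PBS, 211.3 in *Atf4*-/- PBS and 105.8 in *Gcn2*-/- ASNase livers, beside 2424 in WT ASNase and 377.5 in *Atf4*-/- ASNase livers, and their part in the *Car3* values was not tested. Of the other fat markers, *Adipoq* was at 1.96 and 0.35 and *Fabp4* at 50.2 and 33.6 in WT ASNase and *Atf4*-/- ASNase livers. *Car3* lies at chr3:14863512-14872523 on the plus strand. *Lipg*, the endothelial lipase, was at 13.9 (7.98 to 19.8) and 0.0921 (0.000934 to 0.183).

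Bile acid genes showed the same direction. Of 26 tested, 6 were called lower and 0 higher (median -1.43), beside 5.20% of all genes tested called lower. The median in *Gcn2*-/- ASNase against WT ASNase livers was -0.96. *Cyp8b1*, the sterol 12-hydroxylase that sets the amount of cholic acid, was at 190.5 (101 to 279.8) and 1.81 (0.6702 to 2.94) after ASNase and at 201 and 56.3 under PBS, so the strains differed in both treatments. *Slco1a1*, an organic anion importer, was at 106 (36.8 to 175) and 0.945 (0.361 to 1.53), with 103 and 124 under PBS. *Slc10a1*, the bile acid importer NTCP, was at 447 (214 to 681) and 106 (58.99 to 154). *Nr0b2*, which encodes the repressor SHP, was at 15.99 (8.91 to 23.1) and 1.03 (0.166 to 1.899).

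Drug-metabolizing genes were called mostly lower, where 5.20% of all genes tested were called lower and 2.52% higher. Of 32 genes of cytochrome P450 family 2, 10 were called lower and 1 higher (median -1.69). The median in *Gcn2*-/- ASNase against WT ASNase livers was -0.87. *Cyp2f2* was at 460.4 (195 to 726) and 29.2 (14.3 to 44.1) and *Cyp2c44* at 198 (105 to 291) and 10.6 (5.97 to 15.1). *Cyp2e1*, which oxidizes ethanol and acetaminophen, was at 4036 (150.5 to 7923) and 1149.9 (361 to 1939) and was not called. Of 26 other P450 and flavin monooxygenase genes, 7 were called lower and 3 higher, the latter *Cyp3a16*, *Cyp3a41a* and the retinoic acid hydroxylase *Cyp26a1* (median -0.63). *Cyp4a12a*, a fatty acid hydroxylase of the male liver, was at 48.7 (20.1 to 77.3) and 0.106 (0 to 0.229), and its near-identical copy *Cyp4a12b* at 14.5 (7.17 to 21.8) and 0.0553 (0 to 0.144). *Cyp2c39*, the exception of family 2, was at 3.87 (1.67 to 6.06) and 53.04 (24.1 to 81.96), but already at 2.68 and 100.2 under PBS.

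All 13 carboxylesterase genes tested lay below 0, and 10 were called lower, with a median of -4.21, the lowest of the pathway lists. The *Gcn2*-/- ASNase group, against the same WT ASNase group, had a median of -1.97. *Ces1f*, which hydrolyzes lipid esters, was at 217 (96.5 to 338) in WT and 0.984 (0 to 2.17) in *Atf4*-/- livers and at 9.85 in *Gcn2*-/- ASNase livers. *Ces3a* was at 514 (193 to 834) and 15.4 (8.37 to 22.4), and *Ces1c*, the most abundant member, at 1389 (419 to 2359) and 355 (143 to 567) with overlapping intervals. Of 28 conjugating enzyme genes, 8 were called lower and 1, the estrogen sulfotransferase *Sult1e1*, higher (median -1.11). Their median in *Gcn2*-/- ASNase against WT ASNase livers was -1.24. Among all genes tested the shares called were 5.20% lower and 2.52% higher. The sulfotransferase gene listed as *2810007J24Rik*, now named Sult2a8, was at 385 (119 to 652) and 2.52 (0.598 to 4.44). *Inmt*, a methyltransferase, was at 786 (372 to 1200.5) and 22.9 (10.4 to 35.3), and *Ugt2b36*, a glucuronosyltransferase, at 462 (183 to 741) and 39.1 (16.5 to 61.7). *Ugt1a1*, which conjugates bilirubin, was at 289 (55.98 to 522) and 320.3 (109.8 to 531) and was not called.

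Of 41 genes of glutathione metabolism and NRF2 targets, 17 were called lower and 1, the heme oxygenase *Hmox1*, higher (median -1.56). Their median in *Gcn2*-/- ASNase against WT ASNase livers was -0.65. Among all genes tested the shares called were 5.20% lower and 2.52% higher. The glutathione S-transferase gene *Gsta3* was at 1511 (544 to 2478) and 180.1 (79.7 to 281), and *Gsta4* at 64.9 (37.9 to 91.9) and 2.91 (0.877 to 4.95). *Gsta1* and *Gsta2* differed under both treatments. *Gsta2* was at 62.8 (35.6 to 90.1) and 1.07 (0 to 2.25) after ASNase and at 46.8 and 10.4 under PBS, and *Gsta1* at 13.7 and 0.687 under PBS. Reads of these copies may be shared.

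**Figure D3:**
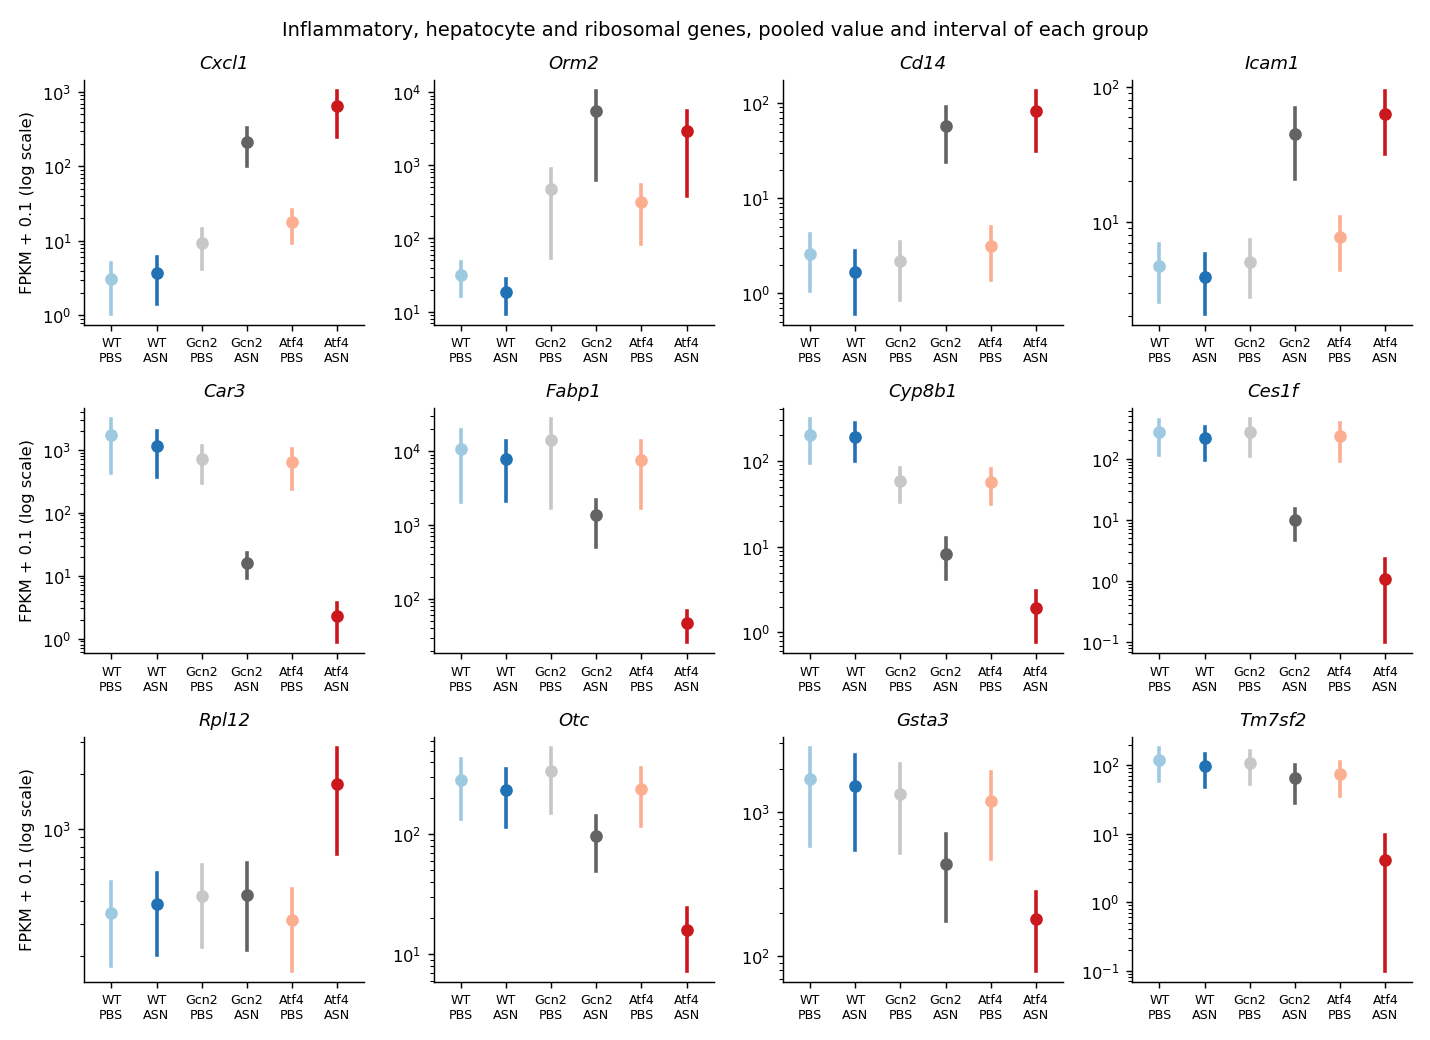
FPKM + 0.1 (log scale) of 12 inflammatory, hepatocyte and ribosomal genes in the 6 groups, named by genotype (WT, *Gcn2*-/-, *Atf4*-/-) and treatment (PBS or ASNase, written ASN). Points are pooled values of 3 livers and lines their Cuffdiff intervals, drawn from 0.1 where the lower bound is 0. *Car3*, *Fabp1*, *Cyp8b1*, *Ces1f*, *Otc*, *Gsta3* and *Tm7sf2* are lowest in *Atf4*-/- ASNase livers, and *Cxcl1*, *Cd14*, *Icam1* and *Rpl12* are highest there.

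Genes of nitrogen handling were called only lower, as were 5.20% of all genes tested. Of 15 urea cycle and nitrogen disposal genes, 2 were called lower and 0 higher (median -1.34). *Otc*, the ornithine carbamoyltransferase, was at 234 (115 to 352) and 15.7 (7.21 to 24.2), with 283 and 239 under PBS. *Cps1*, which makes carbamoyl phosphate, was at 781 (101 to 1460.4) and 498 (57.1 to 939.8), and *Arg1*, the arginase, at 869 (361 to 1377) and 984 (379.9 to 1588), neither called. Of 51 amino acid breakdown genes, 11 were called lower and 0 higher (median -0.90). In *Gcn2*-/- ASNase against WT ASNase livers the medians were -0.74 for the urea cycle list and -0.55 for the breakdown list. *Gamt*, which makes creatine, was at 144 (83.7 to 205) and 3.82 (1.35 to 6.29). *Tat*, the tyrosine aminotransferase, was at 1169 (197 to 2141) and 2013 (94.5 to 3931) and was not called.

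In glucose metabolism 2 of 27 genes were called lower and 2 higher (median -0.49). The shares over all genes tested were 5.20% lower and 2.52% higher. *G6pc*, glucose-6-phosphatase, was at 168 (71.9 to 264) and 40.8 (21.4 to 60.2), and the glucose transporter *Slc2a2* at 145 (76.8 to 214) and 25.01 (10.6 to 39.4). *Igfbp1*, an insulin-repressed binding protein of IGF-1, was at 98.1 (53.6 to 142) and 1663 (203 to 3123), and *Irs2*, an insulin receptor substrate, at 2.67 (1.36 to 3.97) and 16.05 (8.88 to 23.2). *Pck1* was at 1166 (281 to 2051) and 557 (203 to 911) with overlapping intervals.

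Genes that depend on growth hormone and on sex differed widely, where 5.20% of all genes tested were called lower and 2.52% higher. Of 23 tested, 10 were called lower and 2 higher (median -1.53), while a further 13, all major urinary protein genes, lacked an estimate in either group or both. *Hsd3b5*, a steroid reductase of the male liver, was at 55.2 (19.6 to 90.8) and 0.167 (0 to 0.348), with 44.3 and 105 under PBS and 0.1804 in *Gcn2*-/- ASNase livers. *Selenbp2* was at 72.4 (16.996 to 128) and 1.397 (0 to 3.58). *A1bg*, a plasma protein gene, was at 22.1 (5.89 to 38.4) and 0.0922 (0 to 0.215). *Mup17*, a pheromone carrier with near-identical copies, was at 429 (116 to 742) and 3.34 (1.18 to 5.49) but listed at 0 in both PBS groups. *Igf1*, the growth hormone target of the liver, was at 361 (64.8 to 658) and 168 (41.2 to 296) and was not called. The WT ASNase and *Atf4*-/- ASNase groups held the same number of males, and the Y-linked *Ddx3y* was at 11.6 (5.67 to 17.6) and 14.2 (7.002 to 21.5). The *Gcn2*-/- ASNase group held fewer males, 1 of its mice.

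Hepatocyte transcription factors gave no calls. Of 28 tested, 0 were called and the median was -0.11, with log2 values between -1.30 and 0.77. *Hnf4a* was at 148 (67.05 to 229) and 213 (88.7 to 337), and *Cebpa* at 149 (78.2 to 221) and 64.9 (34.7 to 95.01). Of 26 complement genes 2 were called lower, of 28 coagulation genes 2 were called lower and 2 higher, and of 24 apolipoprotein and lipoprotein genes 2 were called lower. Over all genes tested 5.20% were called lower and 2.52% higher. *C9*, of the membrane attack complex, was at 142 (67.6 to 217) and 23.8 (6.59 to 41.1), and *F11* at 30.5 (17.7 to 43.3) and 4.89 (2.43 to 7.34). *Serpina10*, a protease inhibitor of coagulation, was at 111 (63.2 to 158) and 808 (298 to 1318). *Lipc*, the hepatic lipase, was at 74.9 (43.1 to 107) and 9.32 (5.24 to 13.4).

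Several growth arrest and early response genes were called higher, as were 2.52% of all genes tested. Of 26 p53 targets and cell death genes, 6 were called higher and 0 lower (median 0.51). *Cdkn1a*, the cyclin-dependent kinase inhibitor p21, was at 4.304 (2.04 to 6.57) and 45.2 (25.1 to 65.4), *Btg2*, an antiproliferative gene, at 4.86 (2.59 to 7.12) and 32.5 (17.5 to 47.5), and *Gadd45g* at 7.62 (3.596 to 11.6) and 89.7 (46.98 to 132). In *Gcn2*-/- ASNase livers these were at 42.6, 36.1 and 126. *Ccnd1*, cyclin D1, was called lower at 15.4 (3.83 to 27.1) and 1.13 (0.236 to 2.02), and *Myc* higher at 2.12 (0.435 to 3.81) and 13.8 (6.46 to 21.2). Of 16 immediate early genes, 5 were called higher and 0 lower, among them *Junb* at 12.7 (7.32 to 18.1) and 92.6 (50.3 to 135) and *Ier3* at 1.36 (0.352 to 2.37) and 16.3 (7.27 to 25.4). *Dusp1*, a phosphatase of the same kind of response, was at 31.9 (17.3 to 46.6) and 13.2 (7.19 to 19.2) and was not called. Among 17 clock genes 3 were called higher (*Arntl*, *Nfil3* and *Cry1*) and 0 lower, but 10 lay below 0 and the median was -0.76. The largest difference was that of *Dbp*, a clock output factor, at 81.2 (17.4 to 145) and 5.15 (0 to 23.7), which was not called because the intervals overlapped. *Arntl*, which encodes BMAL1, was at 0.462 (0.124 to 0.8003) and 4.998 (2.59 to 7.41).

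Several genes of adaptive immunity and matrix were called lower. The MHC class II genes *H2-Aa*, *H2-Ab1* and *H2-Eb1* were called lower, with *H2-Aa* at 19.2 (10.5 to 27.98) and 2.25 (0.571 to 3.92) and *Cd74*, their chaperone, also called lower at 50.4 (28.6 to 72.2) and 11.02 (5.62 to 16.4). The class I genes *H2-Q4* and *H2-Q6* were called higher, with *H2-Q4* at 16.5 (9.32 to 23.6) and 58.001 (28.7 to 87.3). *Ighm*, the B cell marker that reached the limit, was at 4.88 (2.17 to 7.59) and 0.761 (0.0963 to 1.43). Of 23 interferon response genes, 4 were called lower and 0 higher (median -0.72), with *Ifit3* at 4.77 (2.19 to 7.36) and 0.604 (0.106 to 1.103) but 23.6 in *Gcn2*-/- ASNase livers. Of 20 matrix genes, 6 were called lower and 0 higher (median -0.84), with *Col3a1* at 10.9 (6.01 to 15.9) and 0.398 (0.103 to 0.692), while *Fn1*, which hepatocytes secrete, was at 147 (58.99 to 235) and 347 (38.5 to 655) and was not called. Of 7 stellate cell and fibroblast markers tested, 6 lay below 0 and 1 (*Colec11*) was called lower (median -1.04), and the list summed to 237.0 in WT and 174.9 in *Atf4*-/- livers. The muscle and squamous genes set aside, whose tissues also hold matrix, summed to 2424 and 377.5 and to 765.0 and 115.9 in these groups, and their part in the matrix genes was not tested. Of 35 autophagy and lysosome genes 1 was called lower (*Ulk2*), of 25 iron and heme genes 1 (*Slc39a4*) and of 29 heat shock genes 1 (*Hspa1b*). These lists lay below the 5.20% of all genes tested that were called lower. Of 17 lipid droplet genes 3 were called lower (*G0s2*, *Mgll* and *Plin5*), and of 10 pericentral genes 4 (*Rgn*, *Lect2*, *Gulo* and *Aldh1a1*). *Ctsl*, a lysosomal protease, was at 370.2 (175 to 565) and 2832 (157 to 5506), a log2 difference of 2.94 that was not called because the intervals overlapped.

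**Figure D4:**
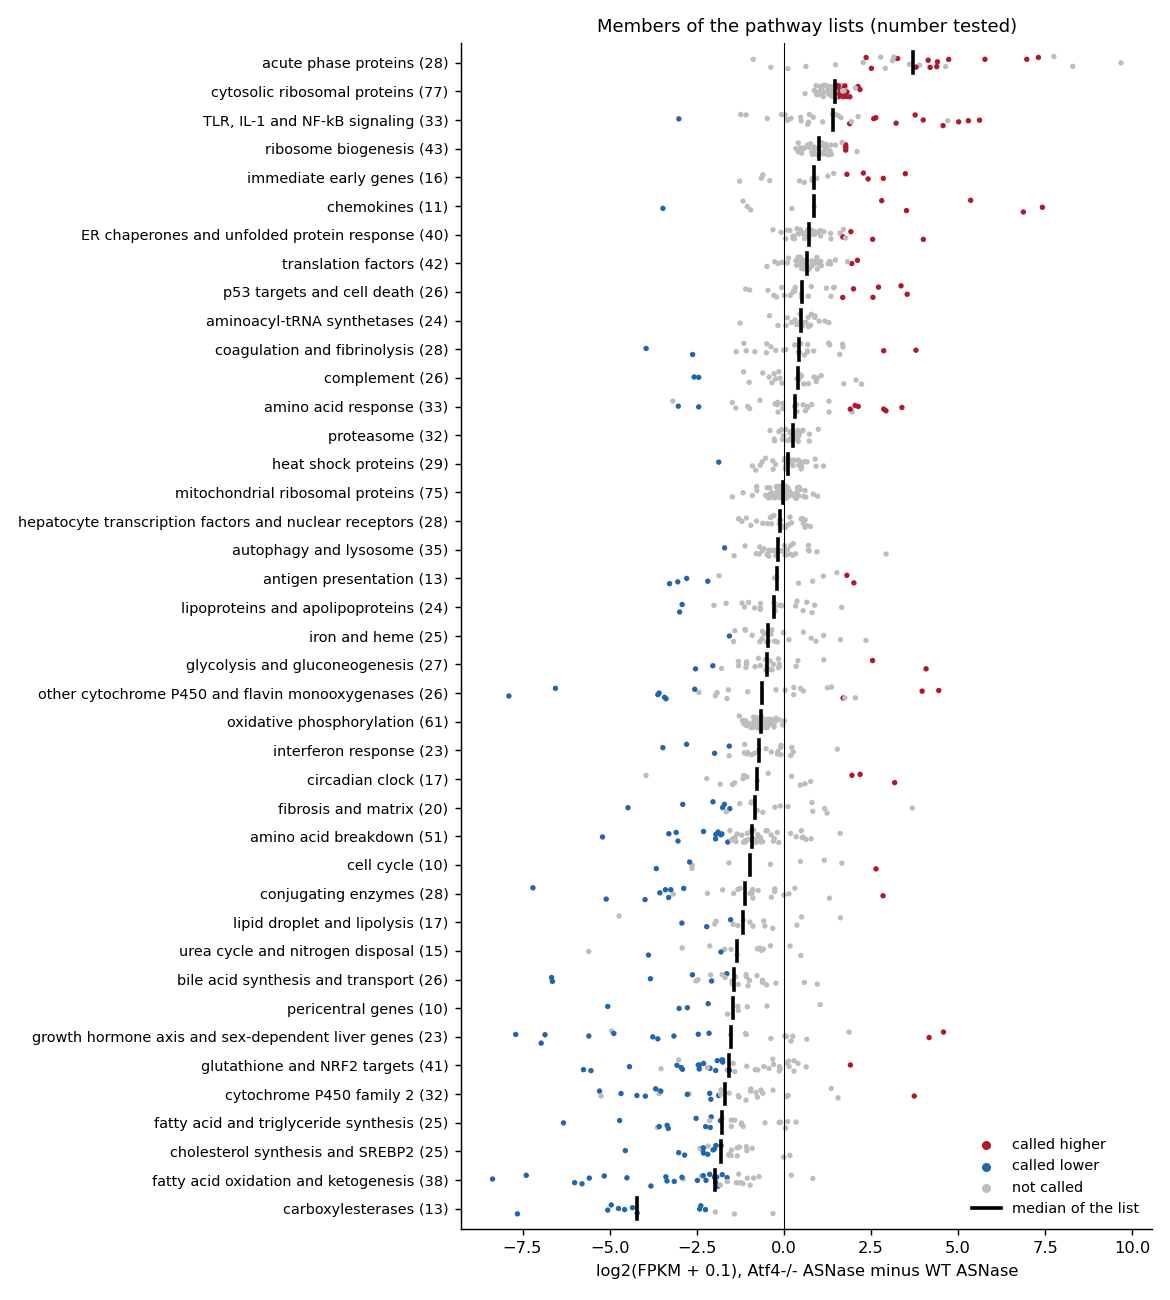
Log2 difference (*Atf4*-/- ASNase minus WT ASNase, log2(FPKM + 0.1)) of every tested member of 41 gene lists, ordered by their median. Each point is a gene, red where called higher, blue where called lower and grey otherwise, and black bars are medians. Acute phase genes are at the top (median 3.70) and carboxylesterases at the bottom (median -4.21).

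The strain difference was compared with that of PBS-treated livers, which share no animals with it. Under PBS 64 genes outside the lists set aside were called, 32 higher and 32 lower. Of these 64 genes, 42 were also called after ASNase, which is 65.6% of the PBS calls and 5.75% of the ASNase calls, with the same direction in 39. For 534 of the 730 genes called after ASNase, 163 higher and 371 lower, the strain difference was larger under ASNase than under PBS by more than 1.5 on the log2 scale and by more than the combined error of the 4 values. Since the 730 genes were chosen for their ASNase difference, this count was in part set by the choice. The condition was met in either direction by 6.87% of the 9458 genes for which it could be computed. The PBS groups differed in sex, 1 male in WT against 2 in *Atf4*-/-, which cannot be told apart from the strain there. Lung epithelium markers summed to 136.4 in WT PBS and 1.91 in *Atf4*-/- PBS livers, against 2.96 and 3.71 after ASNase, and their part in the PBS values was not tested.

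A minority of differences was already present without the drug. In 54 of the called genes the PBS difference had the same direction and at least 50% of the size. *Cyp3a16* was at 0.322 in WT PBS and 72.2 in *Atf4*-/- PBS livers, and at 0.464 (0.0765 to 0.852) and 12.2 (4.79 to 19.6) after ASNase. Members of this P450 family are similar in sequence, so the division of reads between them is uncertain. *Cyp3a41a* was at 1.09 and 20.8 under PBS and at 0.669 (0.0136 to 1.32) and 11.9 (5.51 to 18.4) after ASNase, and *Serpina3c* at 0.0814 and 7.32, and at 0.109 (0 to 0.241) and 4.29 (1.56 to 7.01). *Moxd1*, a monooxygenase gene, was at 0.00945 and 1.896, and at 0.07703 (0 to 0.2802) and 4.14 (1.77 to 6.51), and was called only after ASNase, since its PBS values lay under the expression limit. Chosen after their values were seen, the metallothionein gene *Mt2* was at 27.01 and 721 under PBS and at 300.4 (107 to 494) and 5518 (1516 to 9519.9) after ASNase, and *Lcn2*, a siderophore-binding lipocalin, at 10.1 and 151, and at 10.5 (4.49 to 16.5) and 8691 (0 to 19987). *Lcn2* was not called after ASNase because its interval in *Atf4*-/- livers reached 0.

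**Figure D5:**
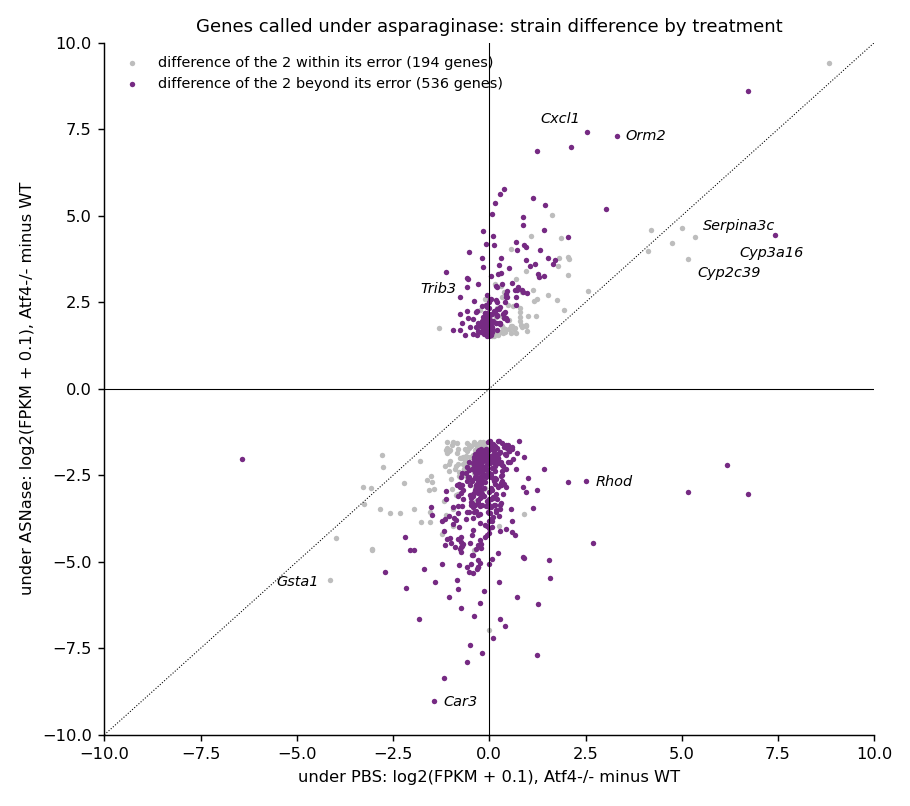
Strain difference (*Atf4*-/- minus WT, log2(FPKM + 0.1)) under PBS (x axis) and under ASNase (y axis) of the 730 genes called under ASNase, with the dotted line of equal differences. Purple points are the 536 genes whose 2 differences were apart by more than their combined error, and grey points the rest. The genes were chosen for their difference under ASNase, which fixes their distance from 0 on the y axis.

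Of the 9608 members, 145 were listed at 0 in 1 of the groups, 84 in WT and 61 in *Atf4*-/- livers, and no fold was computed for them. Apart from *Klk1b22*, a kallikrein gene listed at 0 in WT and at 3.01 in *Atf4*-/- livers, they carried names of predicted genes, pseudogenes or short RNAs. A further 38 genes had a status other than OK in either group and were not members. Some gene models overlap others in the annotation, among them *Tifa*, *Acaa1b*, *Elovl3*, *Tm7sf2*, *Hsd3b5*, *Rpl12*, *Ccnd1*, *Junb*, *Itgam*, *Atf5* and *Ddit3*. How reads of overlapping genes and of near-identical copies were divided is not given in the sources used here, so these values are uncertain.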

How the data were processed

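Poly-A RNA-Seq libraries of 18 mouse livers, 3 per group, were analysed from the processed table. Per the submitters' processing notes the reads were aligned with TopHat to mm10 and estimated with Cuffdiff. The deposited table holds, for each of 6 groups, 1 FPKM value per gene that the authors estimated from 3 libraries together, with interval bounds and a status. The study's methods also name Bowtie, Cufflinks and Cuffmerge, with their versions. Strand use and the division of shared reads are not given in the sources used here, and the depth of the libraries was not used. FPKM are relative to all mapped reads, so a few abundant genes can shift the rest.

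FPKM were compared as log2(FPKM + 0.1) among genes with status OK and an FPKM over 3 in either group, with the call rule of the report. The strain difference under ASNase was set beyond that under PBS when it differed by over 1.5 and by more than the root of the summed squared interval widths, from value to bound, of the 4 log2 values. Groups came from the labels. Of 1716 names in 55 gene lists 1709 matched the table. Members and lists were chosen with earlier results of these data known, and 3 lists after values had been seen. Named genes were Atf4 and Eif2ak4, the 12 called genes in each direction with the widest gap between intervals, in each list up to 6 called members with the largest difference and up to 3 of the highest that were not called, and 10 stress genes regardless of values. Outside this rule, and after values had been seen, Adipoq, Cyp26a1, Ddit4, Gm8730, Hmox1, Klk1b22, Lcn2, Mt2, Rpl3-ps1, Sult1e1 and Tlr5 were named. Some genes that this rule names are not reported here. Coordinates are from GENCODE M21 (mm10), in which 35446 of 37303 gene IDs matched, and promoter windows of 250 bases before to 50 after the start from RefSeq. Python 3.11.15, numpy 2.4.6, pandas 2.3.3 and matplotlib 3.10.9 were used. The call rule was run on values simulated from the WT ASNase intervals, with no noise on the WT side. That run cannot show how often unchanged genes of these data are called. With 1 pooled value per group no p-value, SD or replicate error could be computed, and the intervals are those of Cuffdiff.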

Additional observations from a re-analysis of the deposited data

Results flagged for a closer look

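In 3 genes the strain difference was called in opposite directions under the 2 treatments. No p-value for the difference between treatments could be computed because each group has 1 pooled value. Rhod, a small GTPase, had a log2 difference of 2.52 under PBS and of -2.67 under ASNase (Atf4-/- minus WT). The small nuclear RNA U1 had 2.04 under PBS and -2.71 under ASNase, and the small nucleolar RNA Snora26 had 2.69 and -4.47. U1 and Snora26 are short RNAs without a poly-A tail, which libraries of poly-A RNA do not measure reliably.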

How the results depend on the processing

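The count of 730 calls after ASNase stayed between 515 and 866 under 14 other settings of pseudocount, expression limit, fold limit, interval rule, scaling, genes at 0 and gene sets, and reached 1173 (444 higher, 729 lower) with no condition on the intervals. The split of 238 higher and 492 lower became 212 and 526 under median-ratio scaling, which moved log2 differences by 0.08. Restriction to protein-coding genes (683 calls) was chosen after seeing the data. The 64 calls under PBS became 100 without an expression limit (40 higher, 60 lower), 131 without the interval condition, 145 with genes at 0 kept and 101 with no list set aside (32 higher, 69 lower). Of 54 list medians recomputed under 3 settings, that of B and T cell markers, which rested on 1 gene, went from -2.53 to -0.79 without an expression limit. Without that limit the medians of the amino acid response (-0.03) and of inflammatory myeloid and neutrophil markers (-0.03) changed sign. Of 178 called named genes, 169 were still called at a pseudocount of 1 and 175 under scaling, where Xbp1, Gar1 and Rpl5 were lost, and 0 reversed. The cause of these changes was not tested. No paired analysis was possible because the table holds 1 pooled value per group, and for the same reason no replicate could be left out. Depth was not used, and interval widths limit what can be called.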
